A study of Arabidopsis thaliana with 6 samples.

Results

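The comparison of 1 h of dexamethasone with no treatment rested on 4 of the 6 arrays of the series, 2 biological replicates per group, chosen by their titles. Each sample was hybridised to an Affymetrix ATH1 array and consisted of cells sorted by fluorescence from 5-day-old J2632-UAS::ARR1ΔDDK-GR seedlings (ecotype C24). Every group carried the construct: the untreated seedlings held it without its inducer, and the treated seedlings received dexamethasone for 1 h before the sort. J2632 is an enhancer trap line, which drives the fusion and marks the cells that were sorted, so both depend on the cells in which this line is active. No group without the construct was analysed here, and the untreated seedlings are labelled as controls with no mock solution named, so the effects of dexamethasone as such and of handling cannot be told apart from that of the fusion. The labels leave it unsaid for each sample whether RNA came from protoplasts or from tissue. ARR1 itself had no named probe set, so the labels could not be tested against its level. The 2 arrays at 4 h entered the fit only to estimate the spread between replicates. All 22746 probe sets other than controls were compared. The levels below are log2 of the deposited intensity plus 16, quantile normalized, and a difference is the mean at 1 h minus the mean of the untreated arrays on that scale.

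Cytokinin is sensed by membrane histidine kinases that pass a phosphate through carrier proteins to response regulators. Type-B regulators such as ARR1 are transcription factors, and their rapid targets include the type-A regulators, which damp the same signal. In the fusion studied here a part of ARR1 was deleted and the glucocorticoid receptor domain was joined to it, so that dexamethasone lets the protein enter the nucleus. The lateral root cap is the outer sheath of the root tip, whose cells are continually replaced and take part in setting the auxin level of the tip. The title of the series names its question as the genes that ARR1 regulates in this tissue.

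The labelled cell type was checked against markers. Of 10 root cap genes, 3 could be measured under the probe annotation (the root cap regulators SMB, BRN1, BRN2 and FEZ could not), and all 3 were above background on all 4 arrays. Their summed deposited intensity was 10040 and 8189 on the untreated arrays and 12140 and 9384 at 1 h. Of 20 markers of the epidermis, cortex, endodermis, stele and quiescent centre, 5 could be measured (0 of the 6 for the stele). Of these 5, 0 exceeded background on all 4 arrays. Their summed intensity was 113.2 and 125.6 untreated and 107.0 and 135.4 at 1 h. The root hair expansin EXPA18 exceeded background on 1 array of each group and the endodermal receptor kinase GSO1 on 1 untreated array, while the cortex gene AT1G62500, the quiescent centre gene AGL42 and the root hair gene EXPA7 did so on no array. Of 3 markers of photosynthetic cells 1 was measured, RCA, which exceeded background on both untreated arrays and 1 array at 1 h. The background of an array was set at the 95th percentile of its 27 control probe sets for Bacillus genes, and 58.1% to 66.5% of the probe sets lay above it. It was higher at 1 h (deposited intensity 43.2 and 47.1) than in the untreated arrays (32.5 and 29.1), and its part in the differences of dim genes was not tested. The 3' to 5' signal ratio, a sign of RNA integrity, ranged from 3.11 to 4.65 for GAPDH and from 2.29 to 5.12 for actin, with overlap between the groups.

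After 1 h no transcript differed from untreated cells by more than the test could separate from the spread between arrays. In limma 0 of 22746 probe sets (0%) passed at an adjusted p under 0.05, and the lowest adjusted value was 0.759. Before adjustment, p was under 0.05 for 1314 probe sets, of which 671 (2.95%) were higher and 643 (2.83%) lower at 1 h, together 5.78% of all tested. At that threshold 1137 would be expected if no probe set differed. Among the 11848 above background on all 4 arrays the shares were 1.51% higher and 0.886% lower. This near-even split depended on the scaling: without quantile normalization 1022 were higher and 431 lower, and with arrays centred on their medians 537 and 861. Groups of 2 arrays did not overlap for 3516 probe sets that were higher (15.5%) and 3568 that were lower (15.7%). With so few arrays, groups that do not differ also separate often, so a lack of overlap is given below as a description. A 95% interval of a difference reached 0.70 on the log2 scale to either side at the median probe set, and 0.62 for those above background on all 4 arrays. Fewer cells of a type and less RNA per cell cannot be told apart in such bulk samples.

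Over all probe sets the spread within the groups was alike, with gaps of more than 2-fold at 9.49% of them between the untreated arrays and 9.44% between the treated ones. It differed for well-detected probe sets. Among the 11848 probe sets above background on all 4 arrays, the 2 untreated arrays differed by more than 2-fold at 655 (5.53%) and the 2 arrays at 1 h at 143 (1.21%). The group means differed by that much at 40 (0.338%). Their median difference in size was 0.17, against a median gap of 0.29 between the untreated arrays and 0.23 between the treated ones. A difference of 2 means has by construction a smaller spread than a gap between single arrays, so these sizes are given as a description. Matched by replicate number, the differences of the first and the second replicate agreed in sign at 52.3% of these probe sets and correlated across them with r = 0.086 (probe sets are not independent replicates, and all share the normalization).

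**Figure D1:**
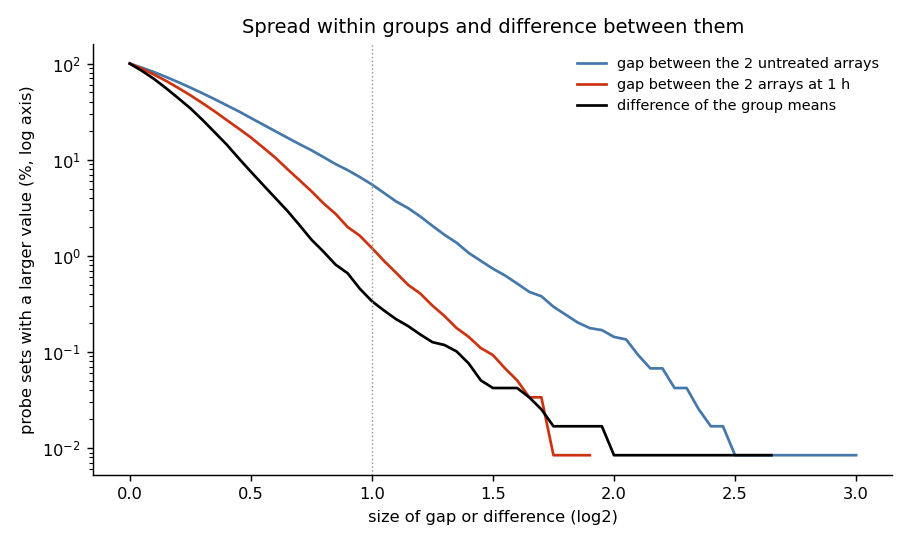
Share of probe sets above background on all 4 arrays (vertical, %, log axis) whose value exceeds the size on the horizontal axis (log2), for the gap between the 2 untreated arrays, the gap between the 2 arrays at 1 h, and the difference of the group means. At the dotted line, a 2-fold size, the shares are 5.53%, 1.21% and 0.338%.

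Large differences were less frequent among probe sets detected on all 4 arrays. Detection on some arrays only is partly decided by the difference itself, so these shares are a description. Of 5586 probe sets above background on 1 to 3 of the arrays, 326 (5.84%) differed by more than 2-fold, and of 5312 above it on none, 116 (2.18%) did. Of those above background on all 4 arrays, 26 were more than 2-fold higher at 1 h without overlap of the groups (0.219%) and 12 lower (0.101%). Only 11 of the 26 and 4 of the 12 carry a single gene in the annotation. The gap between the nearest arrays of the 2 groups exceeded 2-fold for 5 of the higher probe sets (0.0422%) and 1 of the lower (0.00844%).

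**Figure D2:**
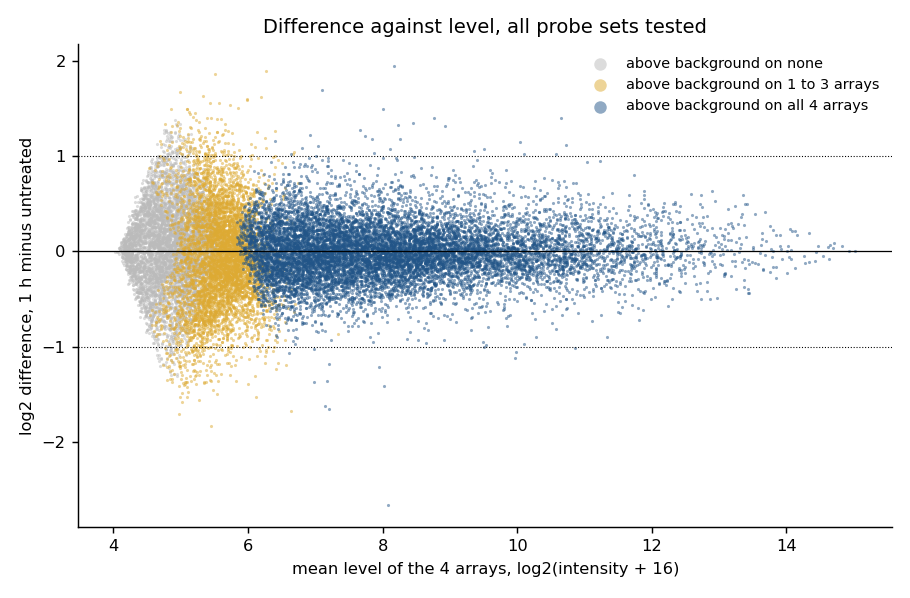
Log2 difference (1 h minus untreated, vertical) against the mean level of the 4 arrays (horizontal, log2 of intensity plus 16) for all 22746 probe sets, one point each, coloured by the number of arrays on which they exceeded background. Dotted lines mark 2-fold; 40 of the 11848 detected on all 4 arrays lie beyond them.

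The genes furthest above their untreated level were a mixed set in which 1 root cap gene stood out by its tight replicates. They are the 10 largest differences among genes above background on all 4 arrays whose groups did not overlap; the adjusted p in limma lay between 0.759 and 0.894 for these and for the 10 genes at the other end. AT1G65570, a gene of the root cap marker list, measured 9.33 and 9.60 untreated and 10.63 and 10.60 at 1 h. Both treated arrays lay above both untreated ones, and the difference was 1.15 (SE 0.26), or 2.21-fold. AT2G42270 measured 8.15 and 7.97 untreated and 9.66 and 9.26 at 1 h, a difference of 1.40 (SE 0.28). AT2G34910 measured 7.01 and 7.50 untreated and 8.56 and 8.93 at 1 h, a difference of 1.496 (SE 0.34). AT1G08590 is annotated as PXL1, a relative of the receptor kinase PXY, which acts in vascular development. It stood at 6.94 and 7.12 in untreated cells and at 8.14 and 8.47 at 1 h, a difference of 1.28 (SE 0.35). In these 4 genes the lowest treated array was more than 2-fold above the highest untreated one.

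Some of the other positive differences rested more on 1 treated array. The largest of the 10, AT1G20180, measured 5.97 and 6.53 untreated and 8.40 and 7.51 at 1 h, a difference of 1.70 (SE 0.41) or 3.25-fold. AT1G71140 measured 7.15 and 7.11 untreated against 8.82 and 7.86, and AT5G64230 7.53 and 7.62 against 9.03 and 8.27. Replicate 1 at 1 h was the higher treated array in 7 of the 10 genes. Without it the difference was 0.74 for AT1G71140, in place of 1.21, and 0.70 for AT5G64230, in place of 1.08. AT5G17850 differed by 1.35 (SE 0.33), AT1G71000 by 1.09 (SE 0.30) and AT5G17820 by 1.08 (SE 0.55). In none of the 10 did the gap between the untreated arrays, at most 0.57, exceed the gap between the groups. The treated pair was the wider one in 8 of the 10, and its gap exceeded that between the groups in 2, AT1G71140 and AT5G64230.

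**Figure D3:**
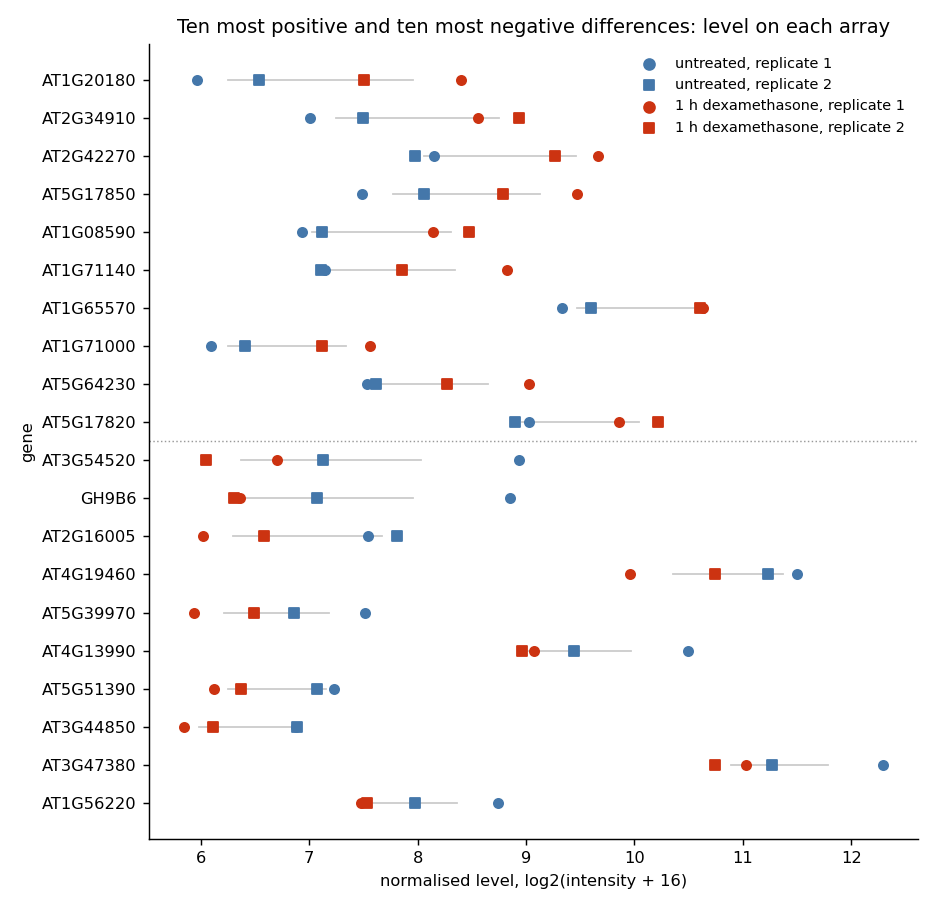
Normalised level (horizontal, log2 of intensity plus 16) on each of the 4 arrays for the 10 genes with the most positive difference (above the dotted line) and the 10 with the most negative; grey lines join the group means. The untreated arrays lie at most 0.57 apart in the upper genes and up to 1.80 apart in the lower ones.

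The genes furthest below their untreated level depended largely on untreated replicate 1. In 8 of the 10 that array was the higher of the untreated pair, and in 6 the untreated arrays lay further apart than the groups did. GH9B6, a glycosyl hydrolase of the family that holds plant endoglucanases, measured 8.85 and 7.07 untreated and 6.36 and 6.30 at 1 h. The treated arrays nearly coincided, whereas the untreated ones were 1.78 apart, and the difference was -1.63 (SE 0.54). Without untreated replicate 1 it was -0.73. AT3G54520 measured 8.94 and 7.13 untreated and 6.70 and 6.05 at 1 h, with a difference of -1.66 (SE 0.57) and of -0.76 without that array.

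A smaller number of the negative differences did not rest on that array. AT2G16005 measured 7.54 and 7.81 untreated and 6.02 and 6.58 at 1 h, a difference of -1.37 (SE 0.30). The treated arrays lay clearly below both untreated ones. AT3G44850 measured 6.88 on both untreated arrays and 5.85 and 6.11 at 1 h, a difference of -0.90 (SE 0.27). AT5G51390 measured 7.23 and 7.07 untreated and 6.12 and 6.37 at 1 h, also a difference of -0.90 (SE 0.27). Leaving out any 1 array kept these 3 between -1.66 and -1.11, -1.04 and -0.79, and -1.03 and -0.79. For AT4G19460, at 11.50 and 11.23 untreated and 9.96 and 10.75 at 1 h, the difference of -1.02 (SE 0.32) was -0.62 without 1 h replicate 1. The remaining negative differences, by contrast, shrank without untreated replicate 1. AT4G13990 (-0.95, SE 0.37), AT3G47380 (-0.89, SE 0.37) and AT1G56220 (-0.85, SE 0.31) then came to -0.42, -0.38 and -0.47. AT5G39970 differed by -0.97 (SE 0.39), and by -0.64 without that array.

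**Figure D4:**
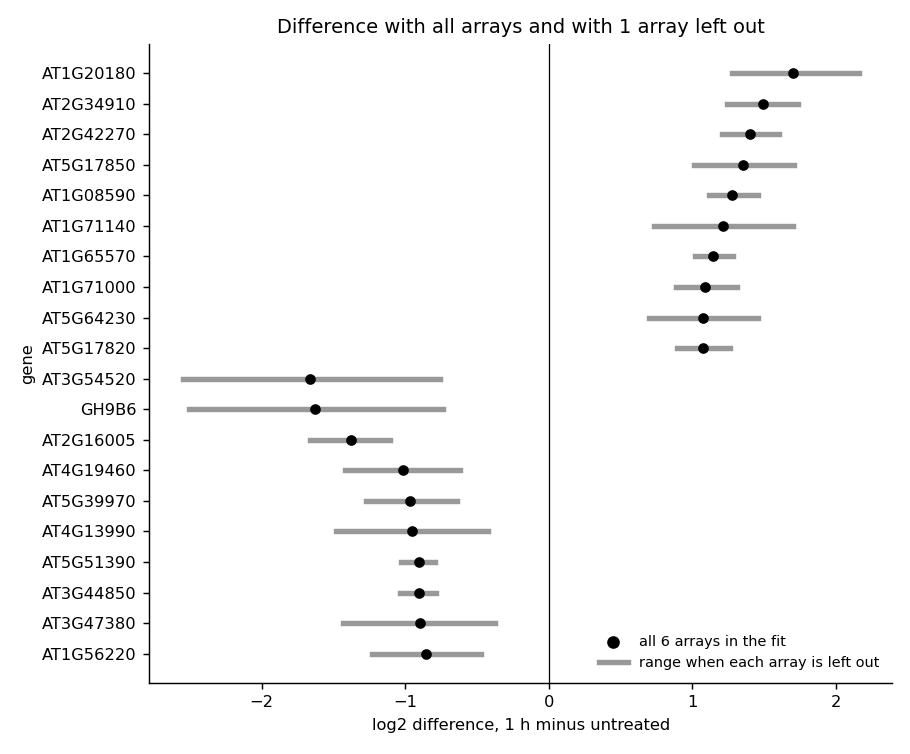
Log2 difference (1 h minus untreated, horizontal) of the same 20 genes with all arrays (black points) and its range when each of the 6 arrays was left out in turn (grey bars). The genes were chosen for groups that do not overlap, so no bar could cross 0; the widest, for AT3G54520, runs from -2.55 to -0.76.

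Probe sets that carry no single gene in the annotation held the largest difference of all. Probe set 250207_at measured 9.92 and 8.92 untreated and 7.32 and 6.18 at 1 h, a difference of -2.67 (SE 0.47), or 6.34-fold. Its higher treated array lay 1 log2 unit or more below the lower untreated one. Probe set 256245_at measured 6.41 and 7.97 untreated and 9.32 and 8.97 at 1 h (1.95, SE 0.54), and its difference was 1.16 without untreated replicate 1. The corresponding values of 261763_at were 9.71 and 10.19 against 11.45 and 11.26, a difference of 1.40 (SE 0.27). For 261156_s_at the difference was -1.42 (SE 0.40), and -0.83 without untreated replicate 1. The adjusted p in limma of these 4 lay at 0.759 or 0.763.

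The genes of the cytokinin pathway could be followed only in small part, and those measured were dim. Of 10 type-A regulators 2 had a named probe set. RR16 measured 5.06 and 4.49 untreated and 5.50 and 5.99 at 1 h; the groups did not overlap, but only the last value exceeded background, so no fold is given. ARR15 measured 5.63 and 5.58 untreated and 4.32 and 6.36 at 1 h, with the treated arrays on either side of the untreated ones and the last value alone above background. The type-B regulator RR18 lay below background on all 4 arrays, as did all 7 measured members of the 13 other early cytokinin-induced genes, among them AT4G15660, AT4G15680, AT4G15690 and AT4G15700. Of 14 cytokinin metabolism genes 2 were measured: UGT76C2, which attaches glucose to cytokinin, stood at 6.04 and 6.24 untreated and 6.07 and 5.51 at 1 h, and UGT76C1 below background throughout. The 9 receptors and phosphotransfer proteins and the 6 cytokinin response factors had no named probe set and were not analysed here.

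Auxin-related genes were mixed. Of 7 Aux/IAA genes, repressors of auxin response, IAA30 was the only one above background on all 4 arrays. It measured 6.06 and 6.93 untreated and 7.10 and 7.66 at 1 h, a difference of 0.88 (SE 0.36) that was 0.45 without untreated replicate 1. The other 6 were below background on at least 1 array, so no level of the family is given. GH3.17, which couples auxin to glutamate, measured 10.72 and 10.94 untreated and 10.67 and 10.93 at 1 h. Its groups overlapped almost fully, with a 95% interval of the difference from -0.58 to 0.52. GH3.1 measured 8.39 and 9.44 untreated and 9.67 and 9.40 at 1 h, so the difference of 0.62 (SE 0.37) rested on untreated replicate 1, without which it was 0.10. GH3.3 lay below background at 1 h and above it untreated, so its mean on these arrays was at least 1.19-fold higher untreated. That bound leaves out replicate spread, and the 95% interval of the difference ran from -1.24 to 0.41.

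Of 9 xyloglucan-modifying XTH genes of the cell wall, 4 were higher and 2 lower without overlap, against 15.5% and 15.7% of all probe sets. XTH33 measured 5.95 and 5.89 untreated and 6.75 and 6.68 at 1 h, a difference of 0.79 (SE 0.24). XTH18 measured 9.86 and 10.16 untreated and 10.63 and 10.94 at 1 h (0.78, SE 0.26), and XTH19 11.56 and 12.02 against 12.23 and 12.24 (0.45, SE 0.24). These were the only 3 of the 9 above background on all 4 arrays. Of the lower members, XTH32 lay below background on all 4 arrays and XTH29 exceeded it on 1 untreated array only. The remaining higher member, XTH21, also lay below background on all 4 arrays. The XTH19 difference was 0.22 without untreated replicate 1, and the adjusted p in limma did not pass for any of them. Expansins, which loosen walls, went both ways, with a median of 0.060 over 10 genes that became -0.034 with arrays centred on their medians. EXPA4 measured 7.69 and 7.25 untreated and 6.30 and 6.94 at 1 h (-0.84, SE 0.30), which was -0.53 without 1 h replicate 1. EXPA15 measured 6.05 and 6.12 untreated, and 7.28 and 6.02 at 1 h, where 1 array alone was high. EXPA9, the brightest, stood between 13.14 and 13.43 on all 4 arrays.

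The remaining measured root cap markers were bright and their groups overlapped. The carboxypeptidase-like gene scpl48 measured 11.84 and 11.99 untreated and 12.33 and 11.96 at 1 h (0.23, SE 0.24), and the marker gene AT4G04460 12.32 and 11.86 against 12.41 and 11.96 (0.09, SE 0.28). Without 1 h replicate 1 the difference of scpl48 was 0.051. In the wider scpl family of 23 genes 5 were higher and 3 lower without overlap, against 15.5% and 15.7% of all probe sets. The family's median difference was 0.18, but -0.053 over the 8 members above background on all 4 arrays. Of these 8, 2 were higher and 2 lower without overlap, against 14.9% and 14.8% of all probe sets so detected. Outside these 8, scpl44, below background on both untreated arrays, was at least 1.49-fold higher at 1 h, a bound that leaves out replicate spread.

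Of 22 genes of rapid stress and touch responses 2 were measured, and of 6 heat shock genes 0. The zinc finger gene STZ measured 13.26 and 13.41 untreated and 13.37 and 13.59 at 1 h, and WRKY53 10.73 and 11.10 against 11.09 and 10.96; both pairs of groups overlapped. All 6 measured WRKY transcription factor genes were above background on the 4 arrays, with a median difference of -0.23 that was -0.04 without untreated replicate 1. WRKY47 measured 7.76 and 6.71 untreated and 6.44 and 6.52 at 1 h (-0.75, SE 0.36), and WRKY22 11.18 and 10.62 against 10.17 and 10.58 (-0.52, SE 0.29). Without untreated replicate 1 the differences were -0.23 and -0.24. Of 7 calmodulin-like CML genes, CML38 measured 9.49 and 9.998 untreated and 10.35 and 10.496 at 1 h (0.68, SE 0.26), and CML37 lay higher at 1 h without overlap (0.29, SE 0.24). CML43 measured 9.67 and 8.68 untreated and 8.27 and 8.69 at 1 h, with overlap. Without untreated replicate 1 the differences of CML38 and CML37 were 0.43 and 0.16, and that of CML43 was -0.20 in place of -0.70. The clock gene GI differed by 0.18 (SE 0.24) and the cell cycle inhibitor SIM by -0.07 (SE 0.25), and the reference genes AT4G34270 and AT2G28390 by 0.21 (SE 0.23) and -0.07 (SE 0.22).

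Among enzymes of specialised metabolism, CHIL (chalcone isomerase like), which acts in flavonoid synthesis, was named after its values were seen. It measured 7.16 and 6.61 untreated and 5.79 and 4.91 at 1 h, without overlap; the last value was below background, so no exact difference is given. DFR, a later enzyme of the pathway, stood at 6.29 and 6.10 untreated and 6.25 and 6.09 at 1 h. Of 47 UGT genes, which attach sugars to small molecules, 9 were higher and 6 lower without overlap, against 15.5% and 15.7% of all probe sets. Their median was -0.080, and 0.00066 without quantile normalization. UGT73D1 measured 6.70 and 6.62 untreated and 7.17 and 7.59 at 1 h (0.72, SE 0.25), and UGT71C1 6.50 and 6.05 against 6.98 and 6.804 (0.61, SE 0.25), the latter 0.38 without untreated replicate 2. UGT85A3, below background on both untreated arrays, was at least 1.47-fold higher at 1 h, a bound that leaves out replicate spread. Differences over the 47, dim members included, ran from -1.42 to 0.91. Of the 22 above background on all 4 arrays, 3 were higher and 3 lower without overlap. The shares of all probe sets so detected were 14.9% and 14.8%. Of 24 cytochrome P450 genes 3 were higher and 5 lower without overlap, against 15.5% and 15.7% of all probe sets. Their median was -0.085. CYP51G2, annotated as a transcribed pseudogene, measured 7.26 and 7.49 untreated and 8.17 and 7.83 at 1 h (0.63, SE 0.24). CYP71B23 ranged from 8.94 to 10.71 within the untreated pair, and its difference of -0.54 (SE 0.54) became 0.34 without untreated replicate 1. The 12 glutathione transferases had a median of 0.046. Among the 7 above background on all 4 arrays the largest differences, those of GSTU28 (-0.28, SE 0.54) and GSTU25 (0.24, SE 0.37), came from groups that overlapped.

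Transcripts of the plastid genome differed more between replicates than between groups. Relative to each gene's mean over the 4 arrays, the median of 69 genes was -0.40 and 0.24 in the untreated arrays, against -0.16 and 0.36 after treatment. In each group replicate 1 was the lower array. The difference was above 0 for 51 of the 69, against 49.6% of all probe sets, and its median of 0.18 became -0.17 without untreated replicate 1. For atpB, a subunit of the ATP synthase, the levels were 9.999 and 11.31 untreated and 10.72 and 11.70 at 1 h, and for the envelope protein gene cemA 6.22 and 7.76 against 7.35 and 7.83. Of the 69 genes 5 were higher and 1 lower without overlap, against 15.5% and 15.7% of all probe sets.

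Other groups of genes that share a symbol, taken where the annotation held at least 8, had median differences from -0.27 to 0.21. The lowest was that of 8 autophagy ATG genes, all above background on the 4 arrays. ATG8C measured 7.70 and 7.32 untreated and 7.15 and 7.10 at 1 h, and 3 of the 8 were lower and 1 higher without overlap, against 14.8% and 14.9% of all probe sets above background. Without untreated replicate 1 the family's median was 0.086 and the difference of ATG8C -0.19, in place of -0.38. The highest was that of 15 tetraspanin TET genes, membrane proteins, and it was 0.020 without untreated replicate 2. Among them TET8 measured 9.87 and 10.67 untreated and 11.01 and 10.93 at 1 h (0.70, SE 0.31), a difference of 0.30 without untreated replicate 1. Among 9 PUB ubiquitin ligase genes, PUB19 measured 8.97 and 9.62 untreated and 10.09 and 9.997 at 1 h (0.75, SE 0.28), which was 0.42 without that array. Of 5 histone genes HTB2 measured 7.22 and 8.12 untreated and 8.32 and 8.37 at 1 h (0.67, SE 0.33), a difference of 0.22 without untreated replicate 1, and HTB4 overlapped (0.30, SE 0.38).

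**Figure D5:**
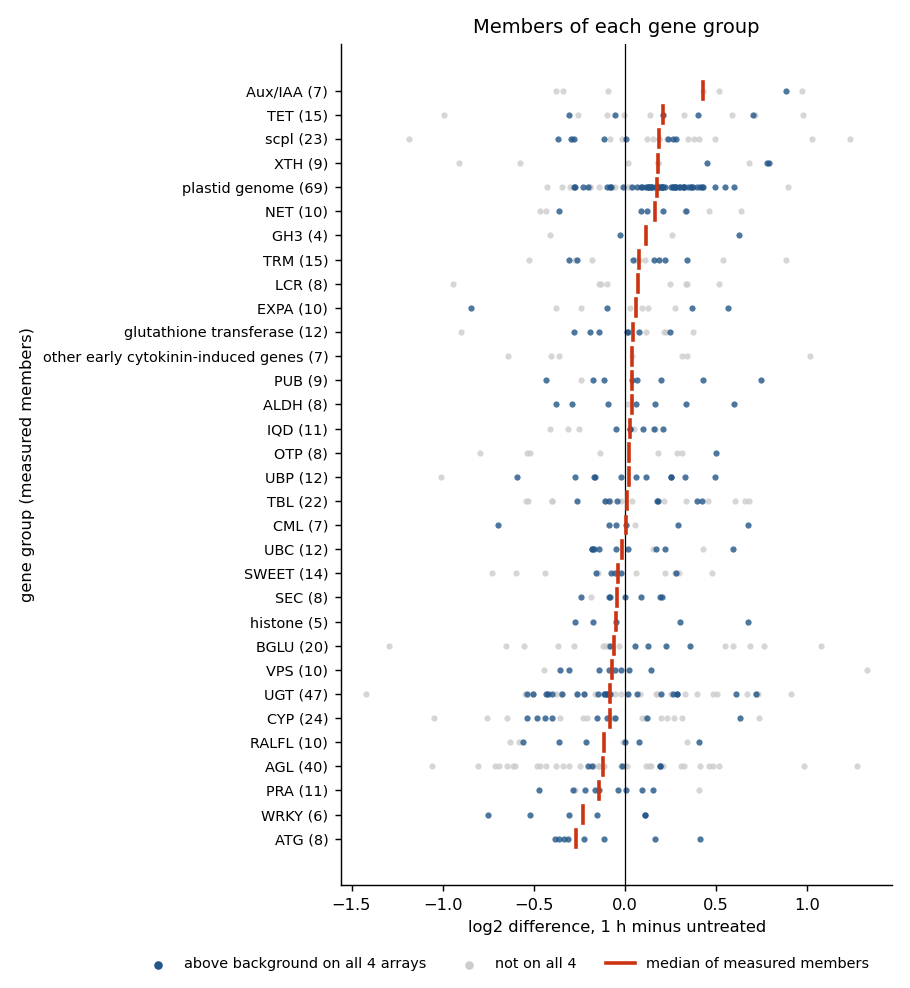
Log2 difference (1 h minus untreated, horizontal) of each measured gene in every list or family with at least 4 measured members (number in brackets); blue points were above background on all 4 arrays, grey points were not, and red bars are medians. Medians run from -0.27 (ATG) to 0.43 (Aux/IAA, where the median gene was below background on all 4 arrays), and both signs occur in every group. Without untreated replicate 1 the medians of ATG and Aux/IAA were 0.086 and -0.25.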

How the data were processed

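RNA of sorted cells was labelled in 2 cycles and hybridised to 1 ATH1 array per sample, per the labels' protocols. The authors deposited 1 intensity per probe set and array, already summarised and scaled (each column has the same 2% trimmed mean); the summary software is not given in the sources used here. Log2 of the deposited intensity plus 16 was taken and, since array medians spanned 0.21, over the limit of 0.1, quantile normalized. All 6 arrays and 3 groups were fitted with limma 3.58.1 in R 4.3.3 (lmFit, eBayes), with Benjamini-Hochberg adjustment over 22746 probe sets (64 control probe sets left out) and a threshold of 0.05. The number of arrays limits the precision, and nothing but the label "biological replicate" separates replicates, so p-values measure the spread between these samples.

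Of the probe sets 13513 carry 1 gene, 503 several and 8730 none in a platform annotation of 2016, and 13436 matched a RefSeq locus by gene identifier (TAIR10.1, used only for names). A gene with several probe sets was taken by the brightest. Named genes are the 10 most positive and 10 most negative differences among single-gene probe sets above background on all 4 arrays without overlap, the 2 largest of each list or family above background, all measured type-A regulators and root cap markers, and 2 probe sets each way without a single gene. CHIL, XTH19, EXPA9, GH3.3, CML37, scpl44, UGT85A3, UGT76C2, ATG8C, TET8 and PUB19 fall outside this rule and were chosen after their values were seen. The members and lists were chosen with earlier results of these data known. Plastid genes were found by their locus tags, and families by symbol (cytochrome P450 without the cyclophilins CYP59 and CYP71). The fit was also run on simulated data as a check of the code, and the outcome is not given here. Alternatives changed the scaling, the pseudocount (1 and 64), the filter on dim probe sets, the arrays fitted, a replicate block, the variance prior, array weights and each array in turn. Promoter sequences were not analysed here.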

Additional observations from a re-analysis of the deposited data

How the results depend on the processing

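In limma 0 probe sets passed under every alternative run, with smallest adjusted p-values from 0.359 (pseudocount 1) to 1.0 and, at an unadjusted p under 0.05, the counts that follow. Against 671 higher and 643 lower, 1022 were higher without quantile normalization, and 399 higher and 358 lower among the 13997 probe sets kept by the filter on background, where fewer were tested. Leaving out 1 array at a time gave 548 to 1264 higher and 486 to 1113 lower. The most, 1264 and 1113, came without untreated replicate 2, and 910 and 905 without 1 h replicate 2. With the replicate number as a block 690 were higher and 655 lower; the numbers do not establish pairing, since only 2 pairs exist per comparison and deviations of same-numbered arrays correlated with r = 0.12 (untreated and 1 h), -0.02 (untreated and 4 h) and -0.04 (1 h and 4 h). Of the named results 24 were chosen as the largest differences without overlap, so their sign could hardly change, and they are not counted. Of 642 alternative values of the others 27 changed sign, and the cause was not tested. The background filter, the replicate block and the variance prior leave the group means as they are, so they could not change a sign. Array weights also left the median difference over all probe sets at -0.0024. Leaving out a 4 h array, or fitting 4 arrays only, acted on the differences through the normalization alone. The 27 of 642 are therefore no measure of how stable the signs are. With arrays centred on their medians the difference was -0.10 for AT4G04460, -0.014 for STZ and -0.053 for WRKY53, and without quantile normalization 0.15 for DFR. Leaving out each array gave ranges of -1.27 to 0.77 for ARR15, -0.14 to 0.0046 for AT2G28390, -0.14 to 0.33 for AT4G04460, -1.43 to 0.34 for CYP71B23, -0.11 to 0.064 for DFR, -0.067 to 1.20 for EXPA15, -0.24 to 0.048 for EXPA9, -0.16 to 0.10 for GH3.17, -0.027 to 0.39 for GI, -0.15 to 0.64 for GSTU25, -0.88 to 0.32 for GSTU28, -0.11 to 0.71 for HTB4, -0.32 to 0.17 for SIM, -0.071 to 0.30 for WRKY53, -0.11 to 1.21 for atpB and -0.17 to 1.35 for cemA.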
